A study of Mus musculus with 6 samples.

Results

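Samd14, the neurabin genes Ppp1r9a and Ppp1r9b and the actin capping protein genes Capza1, Capza2 and Capzb were followed through RNA sequencing of mouse common myeloid progenitors. These are 6 of the 24815 genes listed in each library, found by matching Ensembl identifiers to gene symbols, and all 6 passed the filter on low counts. Samd14 had been noticed for its low level in the mutant in these same libraries, so its values, and those of its partners in the same comparison, are given as a description with no test. The libraries fall into 2 groups of 3, namely progenitors that lack the Gata2 -77 enhancer on both alleles (-77-/-, libraries C, D and Q) and wild-type (WT) progenitors (libraries A, F and L). Both groups are C57BL/6 fetal liver cells at embryonic day E13.5, sorted by flow cytometry as c-kit+, Sca-1-, CD34+ cells low for Fc receptor and free of lineage markers. The lineage stain covered TER-119 and Gr-1, B220, the T cell markers CD3, CD4, CD5 and CD8, and also CD41 and CD48. The labels do not say whether a library holds 1 embryo or several, so any p-value reflects the variation among these libraries alone, which may be technical.

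Capping protein is a heterodimer of an alpha subunit (from Capza1 or Capza2) and a beta subunit (from Capzb) that binds the barbed end of actin filaments and stops their growth. SAMD14 is a sterile alpha motif (SAM) domain protein that binds capping protein and has been linked to Kit receptor signalling in erythroid precursors, and its gene holds an intronic enhancer occupied by GATA factors. Neurabin-1 (Ppp1r9a) and spinophilin (Ppp1r9b) are scaffolds known mainly from neurons, where they bind actin filaments and protein phosphatase 1.

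The kinship of Samd14 and Ppp1r9a can be read in their coding sequences. In the GENCODE M21 transcripts the longest ungapped block shared by the translated sequences spans 92 codons, from codon 322 to 413 of Samd14 and from codon 985 to 1076 of Ppp1r9a, in the part of both proteins that holds the SAM domain. In this block 62.0% of codons encode the same residue and 65.2% of bases are identical. The 90 bases given here for each gene are the most similar ungapped stretch of that block, shown 5′ to 3′ with capitals at bases that are identical in both genes (65 of 90). On GRCm38 (mm10) the Samd14 stretch is chr11:95023526-95023615 on the plus strand, in exon 9 of 10, and the Ppp1r9a stretch is chr6:5158182-5158271 on the plus strand, in exon 15 of 16.
Samd14: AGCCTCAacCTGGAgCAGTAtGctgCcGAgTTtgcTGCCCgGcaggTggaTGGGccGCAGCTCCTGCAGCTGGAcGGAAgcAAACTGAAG
Ppp1r9a: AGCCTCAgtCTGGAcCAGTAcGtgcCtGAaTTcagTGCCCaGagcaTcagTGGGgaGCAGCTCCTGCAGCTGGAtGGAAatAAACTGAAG

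Ppp1r9b ends before this region. Its reading frame of 817 codons aligned with the first 827 of the 1095 codons of Ppp1r9a, with 54.2% of 764 aligned codons encoding the same residue. The best alignment of Samd14 with Ppp1r9b was elsewhere and weaker, over 90 codons with 30% encoding the same residue. The longest run of identical bases that the whole Samd14 transcript shared was 32 with Ppp1r9a and 13 with Ppp1r9b.

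Among the libraries 1 stood apart. Mutant C correlated with the other 5 libraries at 0.880 to 0.923 (Pearson's r of log2 CPM across genes), and those 5 with each other at 0.974 to 0.989. Its reads came from shorter genes, with a count-weighted length of 1795 bases, against 2826 to 3113 bases elsewhere. Depth ran from 14800563 to 30596279 expected counts in the mutant libraries and from 14473913 to 21509720 in the WT libraries. For this reason the fitted log2 fold changes of the 6 genes and of the pathway genes named here are repeated with mutant C left out. The targeted gene Gata2 stood at 8.92, 16.5 and 17.8 CPM in mutants C, D and Q, against 78.6, 57.4 and 63.9 CPM in WT libraries A, F and L, where CPM is the count after TMM scaling for library size and composition. The enhancer lies outside the transcript, so these reads check the labels only through the level. With all 6 libraries edgeR did not call Gata2 (log2 fold change -2.20, edgeR adjusted p = 0.068). Without mutant C it did (log2 fold change -1.97, edgeR adjusted p = 0.0019). The absence of a call with all libraries is thus weak evidence that a gene is unchanged. The gate genes Cd34, Kit and Ptprc were present in every library. Of 10 gate markers, which include genes sorted for and against, 2 (Kit and Itga2b) had every mutant library below every WT library. Another 2 (Cd34 and Cd48) had every mutant library above, and 1 (Itga2b) was called by edgeR. Over all genes tested, 11.4% lay below in this way, 10.6% lay above and 0.155% were called. Cd34 had 1254, 998 and 1024 CPM in mutants C, D and Q, against 685, 862 and 861 CPM in WT libraries A, F and L. The 10 summed to 3892 to 4210 CPM in mutant and 3823 to 4688 CPM in WT libraries.

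Samd14 was low in every mutant library. It stood at 0.771, 0.621 and 0.527 CPM in mutants C, D and Q, against 14.7, 10.7 and 11.5 CPM in WT libraries A, F and L. The groups lay far apart, and the highest mutant value was below the lowest WT value by more than either group's own range. Means were 0.640 ± 0.123 CPM in the mutant and 12.3 ± 2.11 CPM in WT (SD, n = 3 each), a log2 fold change (mutant over WT) of -4.31 with a standard error of 0.26, or 19.9-fold lower. Of the 12222 genes tested, 11 had a lower fitted log2 fold change, and 17 (0.139%) were at -4 or below. Without mutant C the log2 fold change was -4.44 with a standard error of 0.25. On GRCm38 its gene, ENSMUSG00000047181, occupies bases 95009879 to 95026087 of chromosome 11 (plus strand).

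The mutant level of Samd14 rests on few reads. Mutants C, D and Q held 7, 13 and 17 rounded counts, with exact Poisson 95% intervals of 2.81 to 14.4, 6.92 to 22.2 and 9.90 to 27.2. In CPM those intervals are 0.310 to 1.59, 0.331 to 1.06 and 0.307 to 0.844, so the 3 mutant libraries could not be told apart at this depth. WT libraries A, F and L held 370, 170 and 195 counts, and the lowest bound among them was 9.17 CPM. The intervals cover counting error only.

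Markers of other blood lineages and of liver cells were read in the same comparison, in which 11.4% of all genes tested had every mutant library below every WT library in CPM. This held for 6 of 8 megakaryocyte markers, and the 8 summed to 49.7 to 76.2 CPM in mutant and 118 to 129 CPM in WT libraries. It held for 5 of 10 erythroid markers. Their sums overlapped, at 809, 226 and 224 CPM in mutants C, D and Q and 302 to 430 CPM in WT libraries. Of the megakaryocyte markers edgeR called 2 of 7 tested and DESeq2 4 of 8. Of the erythroid markers edgeR called 1 of 10 and DESeq2 4 of 10. Over all genes edgeR called 0.155% and DESeq2 0.674%. Without mutant C edgeR called 4 markers in each of these lists, beside 0.840% of all genes. The 8 hepatoblast markers summed to 93.1 to 550 CPM in mutant and 41.8 to 100 CPM in WT libraries, which overlap. Every mutant library was above every WT library for 3 of them, beside 10.6% of all genes. Their median log2 fold change was 2.89. Of the 8, edgeR called 0 (0.155% of all genes), and 6 had an unadjusted p under 0.05 (4.80% of all genes). By limma-voom 0 were called (0.262% of all genes), and by DESeq2 4 (0.674%). No marker on these lists was at 0 in every library. The part of these cell types in the Samd14 difference was not tested, and in bulk RNA fewer cells of a type and less RNA per cell cannot be told apart. The macrophage list summed to 165 to 211 CPM in mutant and 154 to 175 CPM in WT libraries, and the endothelial list to 43.5 to 58.0 CPM in mutant and 73.0 to 78.5 CPM in WT libraries.

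The deposited TPM, which corrects for transcript length, gave the same order of groups. Samd14 had 0.19, 0.49 and 0.27 TPM in mutants C, D and Q, against 9.59, 6.18 and 6.52 TPM in WT libraries A, F and L. In the mutant mean it ranked above 49.9% of the listed genes, and in the WT mean above 65.2%. The mutant TPM values carry a shift in length as well as in count. The deposited length of Samd14, an abundance-weighted mean over 2 listed transcripts of 3318 and 766 bases, was 2589.17 bases in mutant C and 2407.24 bases in mutant D, and 3318 bases in mutant Q and in all 3 WT libraries. Solved for the 2 transcripts, the short one made up 28.6% and 35.7% of Samd14 abundance in mutants C and D and 0% elsewhere. These shares correspond to 0.591 and 1.48 expected counts, so they stand on about the weight of 1 read. The 397 coding bases annotated on the short transcript are the first 397 of the long one and do not reach the stretch shared with Ppp1r9a.

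**Figure D1:**
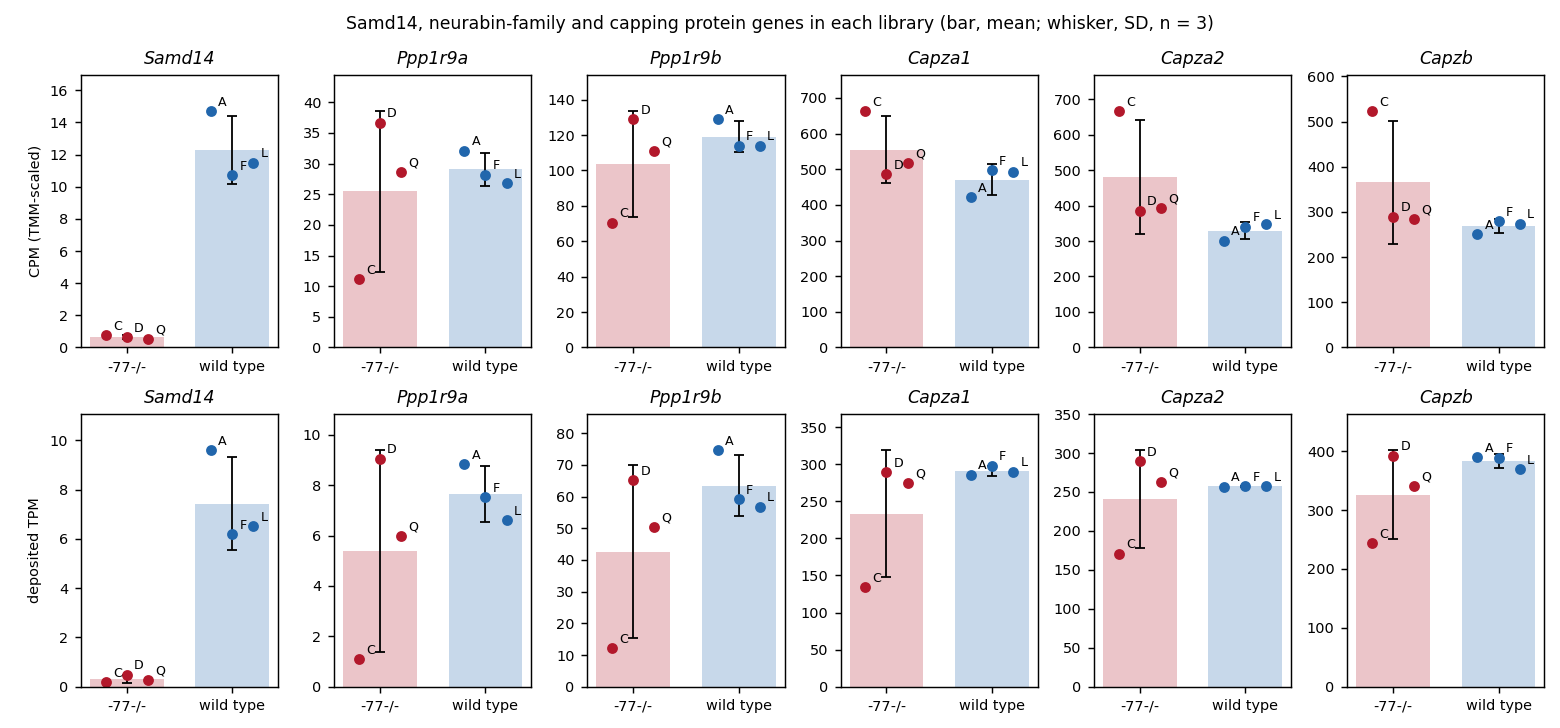
CPM (upper row, TMM-scaled) and deposited TPM (lower row) of each gene by library, with -77-/- libraries left and WT libraries right, points labelled by library letter, bars at the mean and whiskers at the SD (n = 3). Samd14 is near 0 in all 3 mutant libraries in both units, while for the other genes mutant C lies apart from mutants D and Q, which sit close to the WT points.

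The neurabin genes were not separated between the groups. Ppp1r9a, which encodes neurabin-1 (chromosome 6, 4902917 to 5165661, plus strand), had 11.1, 36.7 and 28.6 CPM in mutants C, D and Q, against 32.1, 28.2 and 26.8 CPM in WT libraries A, F and L. Mutant C was the lowest of all 6 libraries and mutant D the highest. The log2 fold change was -0.18 with a standard error of 0.41 with all libraries, and 0.15 with a standard error of 0.13 without mutant C. In TPM it had 1.1, 9.04 and 5.97 in mutants C, D and Q, and 8.84, 7.51 and 6.61 in WT libraries A, F and L. The 6 neuron markers summed to 0.239 to 0.661 CPM in mutant and 0.296 to 0.636 CPM in WT libraries, with the synaptic vesicle gene Syt1 and the neuronal splicing factor gene Rbfox3 at 0 in all 6.

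Ppp1r9b, which encodes spinophilin, is the direct neighbour of Samd14. It runs from 94991035 to 95006899 on the plus strand of chromosome 11, and 2979 bases separate its end from the start of Samd14. It had 70.4, 129 and 111 CPM in mutants C, D and Q, against 129, 114 and 114 CPM in WT libraries A, F and L. Mutant D matched the highest WT library, mutant Q lay just below the lowest, and mutant C was the lowest library of all. The log2 fold change was -0.20 with a standard error of 0.25, and 0.00 with a standard error of 0.10 without mutant C. TPM values were 12.25, 65.16 and 50.38 in mutants C, D and Q, and 74.55, 59.18 and 56.74 in WT libraries A, F and L. Solved in the same way from the deposited length, the shorter of its 2 transcripts (3095 against 4508 bases) made up 53.5% to 56.0% of abundance in mutant and 53.5% to 58.4% in WT libraries.

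The balance of the 3 genes within a library differed between the groups, with Samd14 the smaller part in the mutant. Samd14 was noticed for its low mutant level, so its smaller share follows from that choice. A smaller Samd14 share also raises the summed share of the other genes, so the shares are a description only. Samd14 made up 1.40%, 0.656% and 0.477% of their summed TPM in mutants C, D and Q, against 10.3%, 8.48% and 9.33% in WT libraries A, F and L. Ppp1r9b held 87.2% to 90.5% in mutant and 80.2% to 81.2% in WT libraries, and Ppp1r9a held 8.12% to 12.1% in mutant and 9.46% to 10.3% in WT libraries. The TPM ratio of Samd14 to Ppp1r9a was 0.0908 ± 0.0713 in the mutant and 0.963 ± 0.130 in WT (SD, n = 3 each), so their levels per length were alike in WT only.

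The capping protein genes were abundant in every library. Capzb, which encodes the beta subunit (chromosome 4, 139192899 to 139291818, plus strand), had 243.64, 392.16 and 341.3 TPM in mutants C, D and Q, against 389.99, 388.98 and 369.16 TPM in WT libraries A, F and L. Capza1 (chromosome 3, 104822779 to 104864505, minus strand) had 134.49, 289.28 and 275.14 TPM in mutants C, D and Q, against 285.61, 298.26 and 289.71 TPM in WT libraries. Capza2 (chromosome 6, 17636234 to 17666972, plus strand) had 170.66, 289.12 and 263.24 TPM in mutants C, D and Q, against 256.73, 257.08 and 257.58 TPM in WT libraries. Mutant C was the lowest library for all 3 genes in TPM. Mutant D was inside the WT range for Capza1 and above it for the other pair, and mutant Q was below the WT range for Capzb and Capza1 and above it for Capza2.

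On the count scale mutant C was the highest library for the same genes. Capzb had 523, 289 and 284 CPM in mutants C, D and Q, against 251, 280 and 274 CPM in WT libraries A, F and L. Capza1 had 663, 486 and 517 CPM in mutants C, D and Q, and 422, 498 and 493 CPM in WT libraries. Capza2 had 666, 385 and 392 CPM in mutants C, D and Q, and 301, 340 and 347 CPM in WT libraries. In CPM, Capza2 and Capzb were higher in every mutant library than in every WT library, though for Capzb mutants D and Q lay just above WT library F.

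The fitted log2 fold changes on counts were 0.24 for Capza1, 0.55 for Capza2 and 0.45 for Capzb, with standard errors of 0.20, 0.27 and 0.28. Without mutant C they were 0.08, 0.23 and 0.09, with standard errors of 0.09, 0.08 and 0.08. On log2(TPM + 1) with all libraries they were below 0, at -0.40, -0.13 and -0.26, and the median over all genes on that scale was -0.54. Measured from that median they were 0.14, 0.41 and 0.28, above it as on counts. The sign thus depends on the scale and on the reference, and the size on mutant C. No direction is therefore given for the capping protein genes with all 6 libraries.

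The trend with gene length in each library bears on these values. With each library's trend of log2 CPM on gene length removed, the log2 fold change was 0.18 for Ppp1r9a, -0.02 for Ppp1r9b, 0.40 for Capza1, 0.55 for Capza2 and 0.04 for Capzb, with standard errors of 0.11, 0.10, 0.22, 0.23 and 0.08. Samd14 stood at -4.25 with a standard error of 0.26 in that fit. The values of Ppp1r9a, Ppp1r9b and Capzb came nearer to those without mutant C, and those of Capza1 and Capza2 did not.

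**Figure D2:**
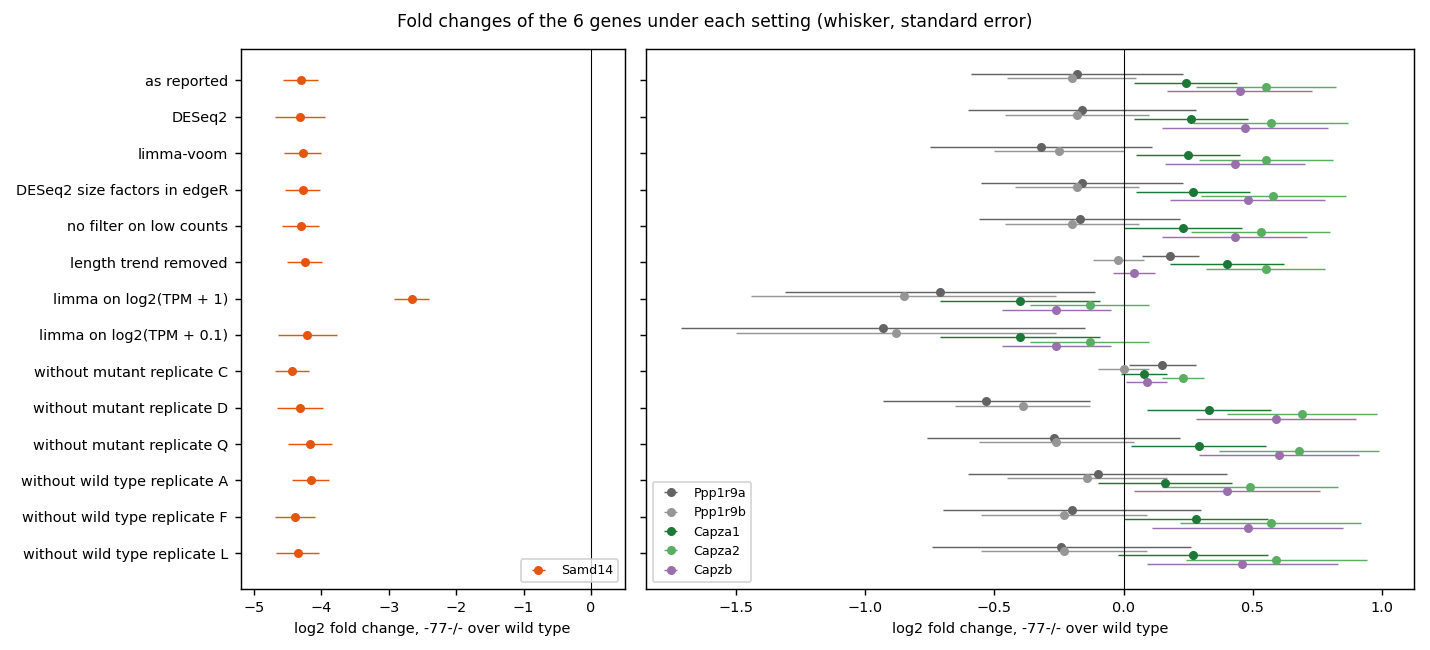
Log2 fold change of each gene (-77-/- over WT, x axis) under the reported fit and each alternative (rows), with whiskers at the standard error. Samd14 (left) lies between -4.44 and -4.16 in every count-based fit and at -2.66 on log2(TPM + 1), whereas the other genes (right) lie within 1 unit of 0 on either side, and Capza1, Capza2 and Capzb are above 0 on counts and below 0 on TPM.

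Levels per length spanned a wide range, with the capping protein genes on top and Samd14 last in both groups. The mutant means, in descending order, were Capzb (326 ± 75.5 TPM), Capza2 (241 ± 62.3), Capza1 (233 ± 85.6), Ppp1r9b (42.6 ± 27.3), Ppp1r9a (5.37 ± 4.0) and Samd14 (0.317 ± 0.155). The WT means were Capzb (383 ± 11.7 TPM), Capza1 (291 ± 6.45), Capza2 (257 ± 0.427), Ppp1r9b (63.5 ± 9.66), Ppp1r9a (7.65 ± 1.12) and Samd14 (7.43 ± 1.88), each as SD with n = 3. In the mutant Capza1 and Capza2 overlapped, with mutant C alone placing Capza2 above Capza1, and Capzb overlapped both. In WT each gene differed from the next by more than their SDs, except Ppp1r9a and Samd14.

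Capza1 and Capza2 encode alternative alpha subunits, so their mix was taken within each library. Capza1 made up 44.1% and 51.1% of alpha subunit TPM in mutants C and Q, with mutant D between them, against 52.7%, 53.7% and 52.9% in WT libraries A, F and L. Every mutant library, C, D and Q alike, was below every WT library, with means of 48.4% ± 3.76 in the mutant and 53.1% ± 0.529 in WT (SD, n = 3 each). Mutant C lay furthest below WT and pulled the mutant mean below mutants D and Q. Mutant Q, at 51.1%, was near the lowest WT library, at 52.7%. The groups also did not overlap in TPM for 25.8% of all genes tested. How often shares of other gene pairs separate was not tested, so nothing is read from this separation. The ratio of summed alpha to beta TPM was 1.25, 1.47 and 1.58 in mutants C, D and Q, against 1.39, 1.43 and 1.48 in WT libraries. Its group means were equal at 1.43, with an SD of 0.168 in the mutant and 0.0451 in WT (n = 3 each), and the WT values fell inside the mutant range.

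**Figure D3:**
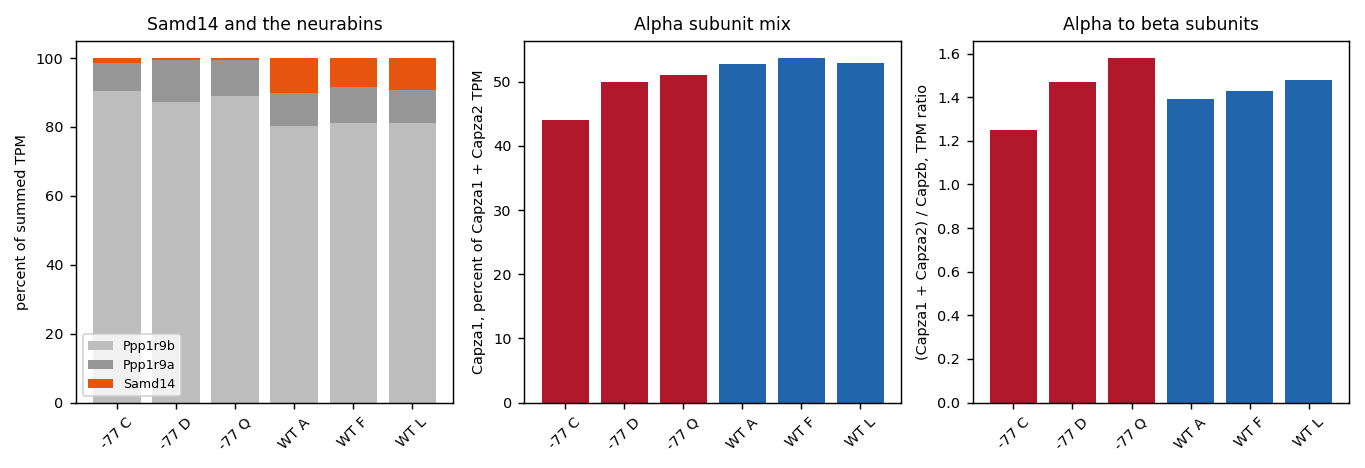
TPM shares and ratios by library, with -77-/- libraries left of WT libraries, for Samd14 among the 3 related genes (stacked percent), for Capza1 among the alpha subunits (percent) and for alpha over beta subunits (ratio). Samd14 holds 0.477% to 1.40% in the mutant and 8.48% to 10.3% in WT, and the Capza1 share is 44.1% to 51.1% in the mutant and 52.7% to 53.7% in WT.

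Sequence sharing between the alpha subunit genes was limited. Their coding sequences are of equal length (861 bases), 84.6% of codons encode the same residue and 76.8% of bases are identical. The longest run identical in both whole transcripts was 26 bases, and it was the sole run of at least 25 bases in the coding sequence. It is shown here within 90 coding bases, with capitals at identical bases (72 of 90), because reads inside such a run could be split between the genes by RSEM. The Capza1 stretch lies within chr3:104828548-104834136 on the minus strand and the Capza2 stretch within chr6:17660789-17662148 on the plus strand (GRCm38), and each spans the junction of exons 7 and 8 of 10.
Capza1: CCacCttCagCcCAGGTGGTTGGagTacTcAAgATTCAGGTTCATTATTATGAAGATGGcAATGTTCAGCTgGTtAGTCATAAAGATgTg
Capza2: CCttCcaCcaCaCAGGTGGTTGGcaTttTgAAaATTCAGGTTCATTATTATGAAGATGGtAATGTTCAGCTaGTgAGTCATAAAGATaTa

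Over all genes tested, 0.155% were past an adjusted p of 0.05 in edgeR's quasi-likelihood test with Benjamini-Hochberg adjustment, and 0.840% without mutant C. Samd14 was picked from among the genes past it, so that call is no test of Samd14. The groups did not overlap in CPM for 3 of the 6 (Samd14, which was lower in the mutant, and Capza2 and Capzb, which were higher), against 22.0% of all genes tested, of which 11.4% were lower and 10.6% higher in the mutant. In TPM they did not overlap for Samd14 alone, against 25.8% of all genes, of which 24.0% were lower and 1.82% higher in the mutant. Because Samd14 was chosen from this comparison, nothing is read from these counts.

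Genes around Samd14 gave no call, but they are few and nothing is read from this count. GENCODE M21 places 43 other genes within 500 kb, of which 26 are in the files and 13 were tested, Ppp1r9b among them. Among those 13, edgeR called 0, beside 0.155% of all genes, and 1 had an unadjusted p under 0.05, beside 4.80% of all genes. DESeq2, limma-voom and edgeR with mutant C left out also called 0. Their median log2 fold change was -0.20, beside -0.02 over all genes, and -0.03 without mutant C. Without mutant C the log2 fold changes of Pdk2 and Fam117a, described next, were -0.33 and -0.44. Pdk2, a pyruvate dehydrogenase kinase gene on the opposite strand that ends 170 bases beyond Samd14, stood at 1.43, 2.10 and 1.89 CPM in mutants C, D and Q, against 2.31, 2.27 and 2.90 CPM in WT libraries (log2 fold change -0.44, standard error 0.26, edgeR adjusted p = 0.58). Fam117a, the gene with the unadjusted p under 0.05, was named for that count after its values were seen. It had a log2 fold change of -0.54 with a standard error of 0.17 (edgeR adjusted p = 0.58).

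**Figure D4:**
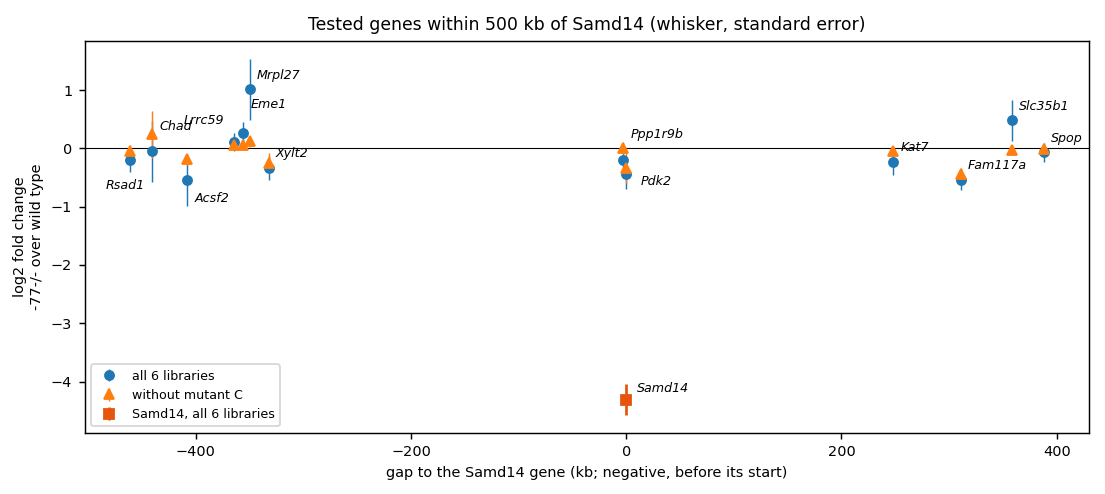
Log2 fold change (-77-/- over WT, y axis, whiskers at the standard error) of tested genes by their gap to Samd14 in kb (x axis), with all libraries (circles) and without mutant C (triangles). Samd14 (square) is at -4.31, and its nearest tested neighbours Ppp1r9b and Pdk2 are at -0.20 and -0.44.

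RefSeq promoter windows were matched for Ppp1r9a, Ppp1r9b, Capza1, Capza2 and Capzb (5 of the 6 genes). They run from 250 bases before to 50 bases after a start on GRCm38.p6. The GATA motif AGATAA, read on both strands, was in the Capza2 window and in none of the windows of Ppp1r9a (2 starts), Ppp1r9b, Capza1 or Capzb, and in 11.2% of all 32851 windows. The 250 bases before the RefSeq start of Capza2 (chr6:17636760-17637009, plus strand) are shown with the motif in capitals, 198 bases before that start. The same interval for Ppp1r9b (chr11:94990962-94991211, plus strand), the start nearest upstream of Samd14, is shown beside it and does not hold these letters. GENCODE M21 starts differ. Its Capza2 gene starts at 17636234, so the Capza2 interval and motif lie inside that gene's span. Its Ppp1r9b gene starts at 94991035, inside the interval shown.
Capza2: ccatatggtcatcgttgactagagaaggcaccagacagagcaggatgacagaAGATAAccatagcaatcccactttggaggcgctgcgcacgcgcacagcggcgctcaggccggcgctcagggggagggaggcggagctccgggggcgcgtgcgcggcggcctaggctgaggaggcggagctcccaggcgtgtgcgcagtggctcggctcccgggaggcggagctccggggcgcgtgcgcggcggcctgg
Ppp1r9b: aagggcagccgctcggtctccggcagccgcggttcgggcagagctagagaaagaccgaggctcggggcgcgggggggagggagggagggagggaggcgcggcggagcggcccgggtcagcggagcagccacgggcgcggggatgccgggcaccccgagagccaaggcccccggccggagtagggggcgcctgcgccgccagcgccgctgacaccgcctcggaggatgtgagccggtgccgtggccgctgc
Both are descriptions of sequence only.

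The genes whose pattern over the 6 libraries was most like that of Samd14 were Rhag, Mfsd2b, Muc13, Cnr2, Slc14a1, Mylk3, Itga2b and Hemgn. Pearson's r on log2 CPM ran from 0.992 to 0.999 among these 8, out of 10045 genes compared, and 47 genes reached 0.95. Each r is a description over 6 libraries that share the genotype split. Rhag, which encodes the Rh-associated glycoprotein of red cells, had 1.32, 1.2 and 1.05 CPM in mutants C, D and Q, against 4.89, 4.04 and 4.32 CPM in WT libraries. Mfsd2b, a sphingosine-1-phosphate exporter gene of red cells and platelets, had 0.771, 0.430 and 0.372 CPM in mutants C, D and Q, against 32.6, 18.3 and 21.8 CPM in WT libraries. In CPM, mutant C was the highest mutant library and WT library A the highest of all for both, as for Samd14. Gata2 was also highest in WT library A but had its lowest CPM in mutant C. In deposited TPM, mutant C was the lowest mutant library for Samd14, Rhag, Mfsd2b and Gata2 alike. The order of the mutant libraries thus depends on the unit, and for Samd14 it rests on few reads. Cnr2, the cannabinoid receptor 2 gene, had 7.82, 7.74 and 8.15 CPM in mutants C, D and Q, against 19.1, 17.4 and 18.7 CPM in WT libraries, a smaller difference (log2 fold change -1.22) with a like pattern. Rhag is also among the erythroid markers, and Itga2b, which encodes CD41, is among the megakaryocyte markers and the gate.

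The partners were most like other genes. For Ppp1r9b the closest included Mfn2, Jag2 and Golga2, for Capza1 Taf7, Ltb and Ei24, for Capza2 Snx1, Ppp1ca and Pwp1, and for Capzb Akr1b3 and Cfp, with r of 0.997 or more. Between 1150 and 2573 genes reached 0.95 with each of these 4, against 47 with Samd14. These counts include mutant C and were not made without it, so nothing is read from the contrast. Without mutant C the r of the genes named here, which were chosen for a high r, ran from 0.983 to 0.997. Ppp1ca, the catalytic subunit of protein phosphatase 1 that the neurabins bind, had 810, 487 and 509 CPM in mutants C, D and Q, against 406, 447 and 462 CPM in WT libraries.

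**Figure D5:**
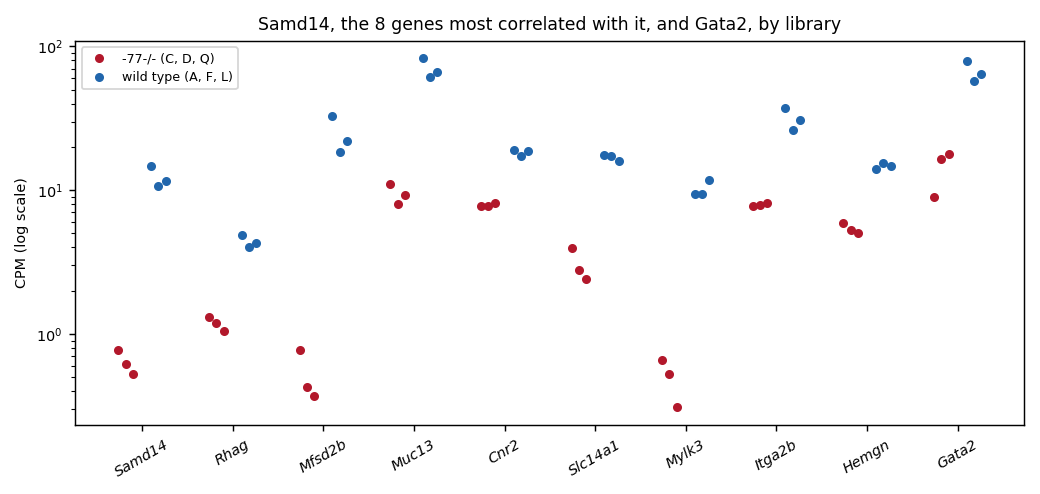
CPM by library (log axis) of Samd14, the 8 genes with the highest Pearson correlation to it over 6 libraries, and Gata2, with -77-/- points left of WT points. All 10 genes have every mutant library below every WT library. In CPM, mutant C is the lowest mutant library for Gata2 but the highest for Samd14, Rhag, Mfsd2b, Muc13, Slc14a1, Mylk3 and Hemgn. In deposited TPM, which is not drawn, mutant C is the lowest mutant library for all 10.

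Other genes of actin capping and of the pathways around SAMD14 gave no call, but few genes were called anywhere and nothing is read from this count. The 7 lists hold 136 genes, of which 115 were tested. With edgeR 0 of them were called, beside 0.155% of all genes tested. An unadjusted p under 0.05 was found for 8 (6.96%), beside 4.80% of all genes tested. DESeq2, which called 0.674% of all genes, and limma-voom, which called 0.262%, each called 0 of them, as did edgeR with the length trend removed, which called 0.442%. When mutant C was left out, edgeR called 0 of 117, and 19 (16.2%) had an unadjusted p under 0.05, beside 10.4% of all genes. Their median log2 fold change was -0.15 with all libraries and 0.03 without mutant C, beside -0.02 and -0.01 over all genes.

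Regulators of capping protein itself gave no call with edgeR, which called 0.155% of all genes tested, and nothing is read from this count. Of 17 listed, 16 were tested, with a median log2 fold change of -0.14, and 12 had a fitted value below 0. This lean did not hold in other fits. The median was 0.00 without mutant C and 0.11 with the length trend removed. Carmil3, a member of the CARMIL family that removes capping protein from filament ends, had 0.110, 0.382 and 0.465 CPM in mutants C, D and Q, against 1.47, 0.631 and 1.01 CPM in WT libraries (log2 fold change -1.54, standard error 0.51, edgeR adjusted p = 0.58), and the log2 fold change was -1.30 without mutant C. Its values rest on few reads, with 1, 8 and 15 expected counts in mutants C, D and Q and 37, 10 and 17 in WT libraries A, F and L. Plekho1, which encodes the capping protein binding protein CKIP-1, had 75.5, 40.2 and 36.5 CPM in mutants C, D and Q, against 27.5, 29.1 and 31.5 CPM in WT libraries (log2 fold change 0.78, edgeR adjusted p = 0.58). Its log2 fold change was 0.38 without mutant C and 0.18 with the length trend removed, and its TPM groups overlapped. Cttnbp2nl, a cortactin-binding protein gene, had a log2 fold change of -0.79, and of -0.76 without mutant C.

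Among other proteins that bind or sever filament ends, 20 of 26 were tested and the median log2 fold change was 0.02. Of the 20, edgeR called 0 (0.155% of all genes), and 5 had an unadjusted p under 0.05 (4.80% of all genes). Without mutant C edgeR again gave 5 of 20 with an unadjusted p under 0.05 (10.4% of all genes). On log2(TPM + 1) limma gave 1 of 17 (2.99% of all genes). The smallest p belonged to Add2, the beta adducin gene of the red cell membrane skeleton, with 1.32, 0.956 and 0.806 CPM in mutants C, D and Q, against 3.26, 2.84 and 2.01 CPM in WT libraries (log2 fold change -1.44, standard error 0.32, edgeR adjusted p = 0.40). Tmod1, the tropomodulin gene of the filament's pointed end in red cells, had 0.110, 0.478 and 0.651 CPM in mutants C, D and Q, against 2.31, 3.03 and 1.07 CPM in WT libraries (log2 fold change -2.18, standard error 0.58, edgeR adjusted p = 0.58). These are few reads, with 1, 10.08 and 21.29 expected counts in mutants C, D and Q and 57.76, 48.49 and 18.27 in WT libraries A, F and L. Capg, the gelsolin-family capping protein gene of macrophages, had 82.2, 34.4 and 34.4 CPM in mutants C, D and Q, against 20.1, 27.9 and 27.3 CPM in WT libraries (log2 fold change 1.0, edgeR adjusted p = 0.58). Without mutant C the log2 fold changes of Add2, Tmod1 and Capg were -1.64, -1.90 and 0.46. Their groups did not overlap in CPM, as in 22.0% of all genes, and those of Capg overlapped in TPM.

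The 9 dynactin subunits, whose short actin-related filament is capped by the CapZ dimer, were all tested and had a median log2 fold change of 0.34, and of 0.05 without mutant C. The subunit genes Actr10, Dctn3 and Dctn6 had log2 fold changes of 0.79, 0.93 and 0.75 with all libraries and 0.15, 0.10 and 0.09 without mutant C. Of 27 actin nucleation genes 25 were tested, with a median of 0.00. Cttn, the cortactin gene, had 6.06, 6.31 and 6.20 CPM in mutants C, D and Q, against 8.35, 8.58 and 8.94 CPM in WT libraries (log2 fold change -0.48, standard error 0.16, edgeR adjusted p = 0.58). Arpc5, an Arp2/3 complex subunit gene, and Diaph1, a formin gene, had log2 fold changes of 0.49 and -0.64, and of 0.17 and -0.32 without mutant C. The value of Cttn without mutant C was -0.47.

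Of 17 protein phosphatase 1 and neurabin partner genes 15 were tested, with a median of -0.15 and values from -0.71 to 1.54. Without mutant C the median was -0.02, and with the length trend removed it was 0.02. With all libraries the highest value was that of Ppp1r11, a phosphatase 1 inhibitor gene. Ppp1r11 had 165, 32.6 and 37.5 CPM in mutants C, D and Q, against 23.4, 28.6 and 28.5 CPM in WT libraries. Mutant C alone held the large value (log2 fold change 0.38 without it). Rgs2, a regulator of G protein signalling, and Ppp1r15a, a stress-induced phosphatase 1 subunit gene, had log2 fold changes of 0.63 and -0.48 (edgeR adjusted p = 0.58 for both), and of 0.32 and -0.33 without mutant C. Of 13 other genes named Samd, 12 were in the files and 4 were tested, Samd1, Samd8, Samd9l and Samd10, with log2 fold changes from -0.44 to -0.16 (Samd10 is named for completeness after its value was seen). The median of the Samd genes was -0.28, and -0.14 without mutant C, where 6 were tested.

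Kit pathway genes were tested in 26 of 27 cases. Their median log2 fold change was -0.28 with 22 fitted values below 0, and -0.02 without mutant C. Jak2, the tyrosine kinase of cytokine receptors, had 34.7, 59.8 and 54.5 CPM in mutants C, D and Q, against 69.6, 73.0 and 74.0 CPM in WT libraries (log2 fold change -0.54, standard error 0.23, edgeR adjusted p = 0.58). Stat5a, its target transcription factor gene, and Gab1, a docking protein gene, had log2 fold changes of -0.57 and -0.63 (edgeR adjusted p = 0.58 for both). Without mutant C the log2 fold changes of Jak2, Stat5a and Gab1 were -0.34, -0.35 and -0.36. These 3 were named for the smallest p of the list, and their groups did not overlap in CPM, as in 22.0% of all genes. Kit itself, a gene of the gate, had 102, 292 and 270 CPM in mutants C, D and Q, against 330, 337 and 317 CPM in WT libraries A, F and L.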

How the data were processed

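The 6 libraries were grouped by genotype from their titles. Per the submitters' processing notes, CASAVA 1.8.2, Bowtie 1.1.1, RSEM 1.2.18 and build mm10 were used. The sources used here do not give the annotation release, read layout or strandedness. The deposited expected counts are unnormalized, per the file headers, and were rounded. The deposited TPM and gene lengths (bases) were used as given, and the deposited FPKM was not used. Gene symbols matched 24448 of 24815 identifiers. Positions and transcripts are from GENCODE M21 (GRCm38), whose Capza1 and Capza2 transcript lengths equal the deposited ones. Promoters are from RefSeq (GRCm38.p6).

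Counts were fitted over all genes with edgeR 4.0.16 in R 4.3.3, with filterByExpr (minimum count 10), TMM scaling and the quasi-likelihood F test, adjusted by Benjamini-Hochberg at 0.05. The standard error was computed as the size of the log2 fold change over the square root of F. CPM values use the TMM scaling, and correlations use log2 CPM with a prior count of 2. Alternatives were DESeq2 1.42.0, limma-voom (limma 3.58.1), DESeq2 size factors, no low-count filter, a lowess trend on gene length (span 0.3) removed as an offset, limma on log2(TPM + 1) and log2(TPM + 0.1) for genes with at least 1 TPM in 3 libraries, and each library left out. The code was tested on simulated data. Coding sequences were aligned with Biopython 1.88.

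The 6 genes, the gene lists and the tests were chosen with earlier results of these data known. Named genes are the 6, Gata2, up to 3 genes with the smallest p and any called gene of each list, the nearest tested neighbours, and the genes most correlated with Samd14 (8) or with Ppp1r9b, Capza1, Capza2 and Capzb (3 each) at a mean of at least 50 counts, leaving out Gm and Rik symbols. A gene that this rule names is not reported here. RSEM can divide reads between similar or overlapping genes. The list symbol Samd4b matched no gene in the files, and Cracd was matched through its RefSeq synonym.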

Additional observations from a re-analysis of the deposited data

How the results depend on the processing

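No paired analysis was possible because the replicate letters differ between the genotypes. Samd14 kept its sign under all 13 alternatives, and its log2 fold change moved by more than its replicate SD only on log2(TPM + 1), to -2.66, where the pseudocount exceeds the mutant level. Leaving out 1 library at a time gave -4.44 to -4.16. Over the same omissions Ppp1r9a ranged from -0.53 to 0.15, Ppp1r9b from -0.39 to 0.00, Capza1 from 0.08 to 0.33, Capza2 from 0.23 to 0.69 and Capzb from 0.09 to 0.60. The highest values of Ppp1r9a and Ppp1r9b were those without mutant C, where Ppp1r9a reversed in sign to 0.15 and Ppp1r9b was at 0.00. With the length trend removed Ppp1r9a reversed to 0.18 and Capzb moved to 0.04. On log2(TPM + 1) Capza1, Capza2 and Capzb reversed to -0.40, -0.13 and -0.26, with the same values on log2(TPM + 0.1). Ppp1r9b moved to -0.85 and -0.88 on these scales, and Ppp1r9a to -0.93 with the smaller pseudocount. The median of all genes was -0.54 and -0.63 on these TPM scales, and Capza1, Capza2 and Capzb lay above it on both. Over all genes 19 were past the threshold, and 124 by DESeq2, 32 by limma-voom, 36 without the filter, 54 with the length trend removed and 12 on log2(TPM + 0.1). It was 106 without mutant C and 0 without any other single library, where 294 to 1611 genes had an unadjusted p under 0.05. Counts in the 7 lists and among the neighbours were 0 under every alternative. The cause of these shifts was not tested. Depth limits the mutant level of Samd14 (7 to 17 counts).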
